A study of Mus musculus with 12 samples.

Results

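The smooth muscle contractile genes described here are 34 genes that encode the contractile apparatus of smooth muscle, its anchorage, its calcium store and its transcription factors. They were chosen by gene symbol, and all 34 were found among the 23420 gene symbols of the raw count table. RNA was sequenced from whole pylorus, the muscular outlet of the stomach, of 4 groups of mice on the C57BL/6 strain, with 3 libraries in each and 12 in all. The groups were wild-type mice of 60 days (D60), wild-type mice of 80 days (D80), and CEA424-SV40 T Ag transgenic mice of either age. In that line a fragment of the human carcinoembryonic antigen promoter drives the simian virus 40 T antigen, an oncoprotein, in gastric epithelium. No treatment is named for any group, all groups share the strain, and the labels leave unsaid whether each library is a separate animal, so p-values measure the spread between libraries, which may be partly technical.

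Smooth muscle contracts when calcium and calmodulin activate myosin light chain kinase, which phosphorylates the regulatory light chain of myosin and lets the thick filament pull on actin. Force passes from actin filaments to dense bodies, to desmin and to plaques in the membrane, and calcium is drawn partly from the sarcoplasmic reticulum. Many of the genes involved are driven by serum response factor (SRF) with its cofactor myocardin, through a DNA element called the CArG box. In the pylorus this muscle forms the sphincter that meters the emptying of the stomach.

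The promoter sequences below show that element in the members. RefSeq promoters on GRCm38.p6, from 250 bases before to 50 after a gene's start, were matched for 29 of the 34 members. The consensus CArG box, searched on both strands, was found in 5 of the 29, which is 17.2%, against 488 of 27025 genes, 1.81%, in the whole promoter table. With 1 mismatch allowed in its A/T run it was found in 9 of the 29, 31.0%, against 3050 genes, 11.3%. A match is a description of the letters and not a site of binding. Srf, the factor's own gene, was the member with 2 exact boxes, at 82 and 62 bases before its start. Acta2, the smooth muscle actin whose CArG elements are a textbook case, had no exact box but 2 with 1 mismatch. Both are shown with Myl9 and Actc1, which held exact boxes, with 20 bases on each side and the boxes in capitals.
Srf (chr17:46556195-46556264, minus strand): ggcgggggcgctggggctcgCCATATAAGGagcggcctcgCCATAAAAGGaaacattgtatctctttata
Myl9 (chr2:156775283-156775332, plus strand): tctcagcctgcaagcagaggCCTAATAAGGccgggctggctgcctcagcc
Actc1 (chr2:114052893-114052942, minus strand): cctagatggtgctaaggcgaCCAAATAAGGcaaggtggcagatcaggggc
Acta2 (chr19:34255378-34255477, minus strand, 1 mismatch in each box): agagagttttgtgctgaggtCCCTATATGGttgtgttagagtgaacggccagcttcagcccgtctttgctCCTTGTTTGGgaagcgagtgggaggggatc
The remaining members with an exact box were Ldb3 and Dmd. In the counts described below Myl9 fell at D80 by 2.28 on the log2 scale, and Srf, Ldb3 and Dmd were lower too. Actc1, with few counts, did not pass the test, and a difference between it and the others was not tested.

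Values are CPM, counts scaled to a library total of 1e+06 and further by edgeR's trimmed mean of M-values (TMM). Differences are log2 fold changes with their standard error (SE). Adjusted p-values are from edgeR's quasi-likelihood test with Benjamini-Hochberg adjustment over the 15369 genes tested, at a threshold of 0.05, and all 34 members were tested. Libraries held 20121600 to 27633715 counts. Stomach and pyloric mesenchyme markers were present in the wild-type libraries, with Cldn18, a stomach claudin, at 761 to 1747 CPM and Barx1, a transcription factor of stomach mesenchyme, at 34.9 to 77.1 CPM. By Xist and Y-linked transcripts the D60 wild-type libraries were male-type, the D80 wild-type and D60 transgenic libraries female-type, and the D80 transgenic libraries female-type except replicate 1. Genotype and sex type therefore cannot be told apart at D60, nor age and sex type in wild-type mice. Members tended to be high or low together within a library. The lowest value of the group was in D60 transgenic replicate 1 for 33 of the 34 members. It was in D60 wild-type replicate 1 for 29 and in D80 wild-type replicate 2 for 29. The highest was in D60 transgenic replicate 2 for 30 and in D60 wild-type replicate 2 for 28. The same counts over all genes were not made, so the pattern is not shown to be particular to the members.

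The members together made up 2.12 to 3.30% of all counts in the D60 wild-type libraries, 1.75 to 2.95% in the D80 wild-type, 1.16 to 2.47% in the D60 transgenic and 0.648 to 0.691% in the D80 transgenic libraries. Their summed level was 30334 ± 3779 CPM (SD, n = 3) in D60 wild-type, 24343 ± 5098 in D80 wild-type and 19384 ± 6051 in D60 transgenic pylorus. In D80 transgenic pylorus it was 5341 ± 91.5 CPM, with the 3 libraries between 5265 and 5443. For 29 of the 34 members each D80 transgenic library lay below each of the 9 other libraries, and the exceptions were Actc1, Ldb3, Sgca, Itga8 and Hspb7. The share of all genes with this pattern was not computed. Against the D80 wild-type libraries alone, 26.1% of all genes tested lay lower without overlap. CPM is a share of each library. In bulk tissue, fewer smooth muscle cells, unchanged muscle diluted by other cells and less of these RNAs per cell cannot be told apart.

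**Figure D1:**
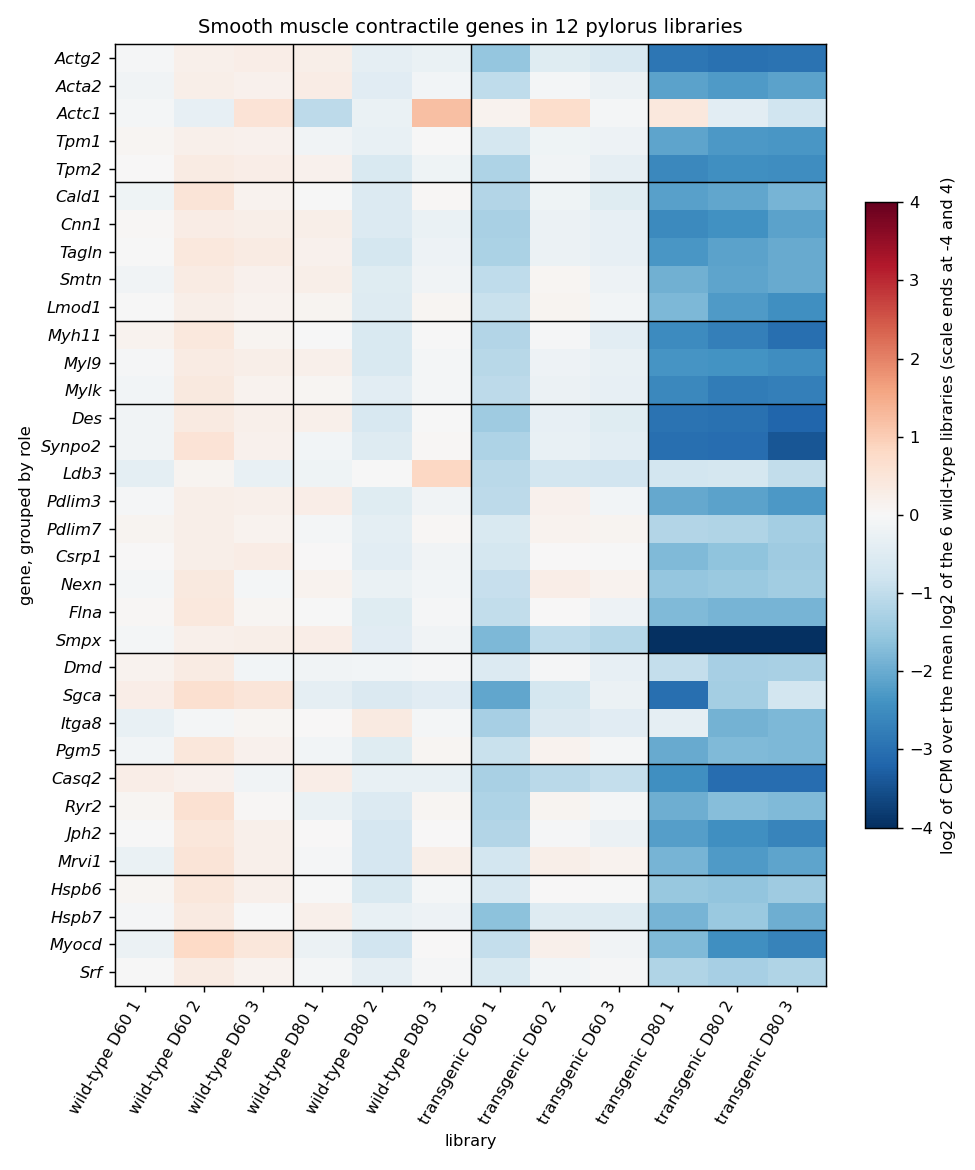
Each row is 1 of the 34 contractile genes, grouped by role, and each column 1 library; colour gives the log2 of CPM over the gene's mean in the 6 wild-type libraries. In the D80 transgenic columns 29 genes are below all 9 other libraries, a count not made over all genes. D60 transgenic replicate 1 is the darkest column of its group, and Smpx lies past the end of the scale at D80.

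Per length of exon, the most abundant members in wild-type pylorus were Acta2 at 1246 CPM per kilobase, Myl9 at 1236, Actg2 at 1193 and Tagln at 1156. Neighbours in this order lay close together, and the order was not tested. Desmin followed at 723 and Csrp1 at 647 CPM per kilobase. The rarest were Ryr2 at 0.503 and Actc1 at 0.412 CPM per kilobase. In D80 transgenic pylorus Acta2 stood at 272, Tagln at 251 and Myl9 at 226 CPM per kilobase, whereas Actg2 stood at 153 and desmin at 86.3.

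At D80, 32 of the 34 members were lower in transgenic than in wild-type pylorus and none was higher, where 22.0% of all genes tested were lower and 19.4% higher. The median log2 fold change of the members was -1.94, against -0.07 over all genes tested, and single members ranged from -4.88 to -0.42. The groups did not overlap for 33 members, as for 26.1% of all genes. Sgca and Actc1 were the members that did not pass the test. The counts lay between 30 and 32 under each alternative normalization, filter, test and left-out library. Without D80 transgenic replicate 1, which leaves female-type libraries on both sides, 32 members were lower, with a median of -2.02. Over all genes 2862 were then lower and 2853 higher, with a median of -0.08. Scaling moved all genes together. With TMM 3380 genes were lower and 2974 higher, with upper-quartile factors 2093 and 3571, and without a composition factor 1001 and 5104, with a median over all genes of 0.34. The members' median without that factor was -1.52, and 30 members were lower.

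**Figure D2:**
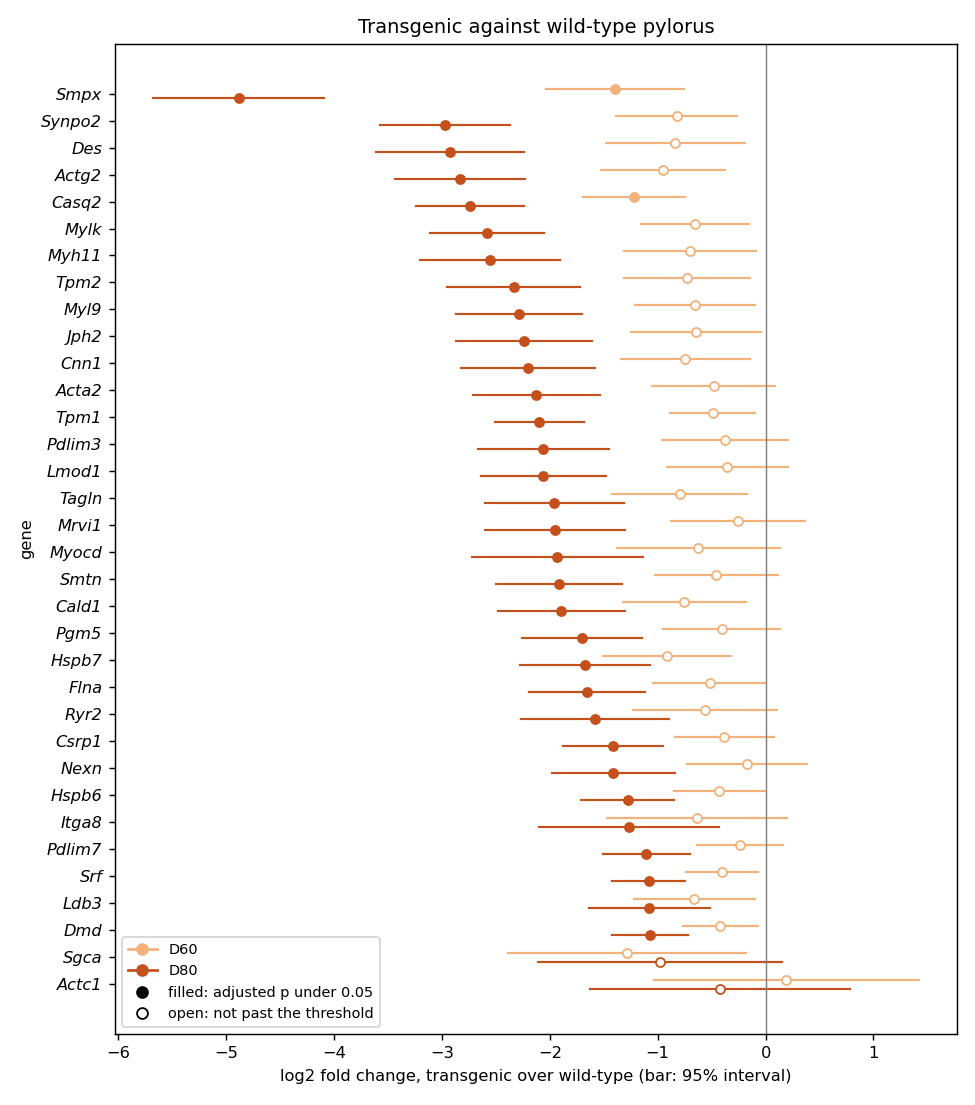
Points give the log2 fold change of transgenic over wild-type pylorus for each member at D60 and at D80, with its 95% interval as a bar; filled points passed an adjusted p of 0.05. At D80 the points run from -4.88 for Smpx to -0.42 for Actc1 and 32 are filled, and at D60 the filled points are those of Casq2 and Smpx.

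The thick filament and its kinase fell most as a class, with all 3 members lower at D80 and a median of -2.56. Myh11, the smooth muscle myosin heavy chain (chr16:14194535-14291372 on GRCm38, minus strand), had 3095, 3783 and 3014 CPM in the D60 and 2769, 1848 and 2812 CPM in the D80 wild-type libraries. In transgenic pylorus it had 1259, 2719 and 2101 CPM at D60 and 492, 421 and 350.0 CPM at D80, every D80 library lying far below the lowest wild-type value. That was a D80 log2 fold change of -2.56 (SE 0.30, adjusted p = 6.0e-05), or 5.88-fold lower. Mylk, the light chain kinase, stood at 1596, 2217 and 1883 CPM in D60 and 1796, 1266 and 1617 CPM in D80 wild-type libraries, against 821, 1445 and 1351 CPM in D60 and 285, 244 and 253 CPM in D80 transgenic ones. Its D80 change was -2.58 (SE 0.24, adjusted p = 1.2e-05), and the transgenic values at both ages lay below the wild-type values of the same age. Myl9, the regulatory light chain that this kinase phosphorylates, had 1369, 1765 and 1637 CPM in D60 and 1612, 915 and 1319 CPM in D80 wild-type libraries. It had 650.1, 1224 and 1151 CPM in the D60 and 271, 266 and 251 CPM in the D80 transgenic libraries, a D80 change of -2.28 (SE 0.27, adjusted p = 6.3e-05). Within each library Myh11 can be set beside Myh9, the non-muscle heavy chain. The log2 ratio of Myh11 to Myh9 was 2.04 to 2.98 in wild-type, 0.99 to 2.25 in D60 transgenic and -0.06 to 0.05 in D80 transgenic libraries.

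Among the thin filament genes, 4 of 5 were lower at D80, with a median of -2.12. Actg2, the enteric smooth muscle actin (chr6:83512905-83536265, minus strand), had 1754, 2103 and 2190.1 CPM in the D60 and 2158, 1415 and 1525 CPM in the D80 wild-type libraries. Its transgenic values were 625, 1319 and 1184 CPM at D60 and 248, 230.4 and 237 CPM at D80. The D80 change was -2.83 (SE 0.28, adjusted p = 1.7e-05), which is 7.12-fold lower. The D60 transgenic values of Actg2 also all lay below those of all 6 wild-type libraries. Acta2, the actin shared by visceral and vascular smooth muscle (chr19:34241090-34255590, minus strand), had 2433, 3154 and 3029 CPM in D60 and 3319.7, 1986 and 2496 CPM in D80 wild-type libraries. In transgenic libraries it had 1331, 2565 and 2284 CPM at D60, overlapping the wild-type range, and 617, 565 and 607 CPM at D80. The fall at D80 was -2.12 (SE 0.27, adjusted p = 1.2e-04), or 4.36-fold.

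Actg2 thus lay further below its wild-type level than Acta2 in the same libraries. The log2 ratio of Actg2 to Acta2 was -0.71 to -0.47 in the 6 wild-type libraries, -1.09 to -0.95 in the D60 transgenic and -1.36 to -1.29 in the D80 transgenic libraries, with no overlap between these 3 ranges. This ratio and the others given here were chosen after their values were seen and carry no test. The reference transcripts of Acta2, Actg2 and Actc1 share 0 stretches of 50 or 100 bases, while Acta2 shares 7 stretches of 50 bases with Actg1, a non-muscle actin.

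Both tropomyosins, the rods that lie along actin, fell at D80. Tpm1 had 2711, 3004 and 2879 CPM in D60 and 2367, 2098 and 2551 CPM in D80 wild-type libraries, and 1603, 2297 and 2220.1 CPM in D60 and 599, 529.6 and 511 CPM in D80 transgenic libraries. Its D80 change was -2.10 (SE 0.19, adjusted p = 8.6e-06), with the transgenic libraries lowest at each age. Tpm2 had 1544, 1916 and 1844 CPM in D60 wild-type, 1729, 1001 and 1342 CPM in D80 wild-type, 642, 1371 and 1188 CPM in D60 transgenic and 253, 280.0 and 274 CPM in D80 transgenic libraries. The D80 change of Tpm2 was -2.34 (SE 0.28, adjusted p = 8.2e-05). Actc1, the cardiac muscle actin, was close to the limit of detection, with 7 to 31 counts per library. It had 0.556, 0.471 and 0.857 CPM in D60 and 0.284, 0.485 and 1.34 CPM in D80 wild-type libraries, and 0.651, 0.958 and 0.553 CPM in D60 and 0.781, 0.442 and 0.341 CPM in D80 transgenic ones. These ranges overlap at both ages, and the D80 difference was -0.42 (SE 0.55, adjusted p = 0.57), with a 95% interval of -1.63 to 0.79 that includes a fall as large as several other members had.

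All 5 regulators that bind actin were lower at D80, within a narrow range of -2.20 to -1.89. Tagln, known as SM22 alpha (chr9:45929619-45936058, minus strand), had 2211, 2962 and 2792 CPM in D60 and 2501, 1379.8 and 1944 CPM in D80 wild-type libraries. Its level in transgenic libraries was 924, 1877 and 1786 CPM at D60 and 447, 505 and 546 CPM at D80, a D80 change of -1.96 (SE 0.29, adjusted p = 4.0e-04). All transgenic values lay below the wild-type values of the same age. Cnn1, calponin, which binds actin and damps the myosin ATPase, had 1219, 1448 and 1403 CPM in D60 and 1384, 811 and 979 CPM in D80 wild-type libraries, and 482, 1011 and 936 CPM in D60 and 203, 220.1 and 265 CPM in D80 transgenic libraries. It fell at D80 by 2.20 on the log2 scale (SE 0.28, adjusted p = 1.3e-04). Smtn, smoothelin, a marker of fully contractile smooth muscle, had 339, 471 and 424 CPM in D60 and 441, 266 and 339 CPM in D80 wild-type libraries. In transgenic libraries Smtn stood at 183, 393 and 324 CPM at D60, overlapping the wild-type range, and at 99.2, 85.7 and 91.9 CPM at D80 (-1.92, SE 0.27, adjusted p = 2.5e-04). Lmod1, leiomodin, which nucleates actin filaments in smooth muscle, had 166, 199 and 187 CPM in D60 and 182, 118 and 178 CPM in D80 wild-type libraries. It had 91.6, 184 and 157 CPM in D60 and 48.3, 35.5 and 30.7 CPM in D80 transgenic libraries, a D80 change of -2.06 (SE 0.27, adjusted p = 1.3e-04). Cald1, caldesmon, which also restrains the myosin ATPase, fell from 624 to 938 CPM in D80 wild-type to 200.1 to 248 CPM in D80 transgenic libraries (-1.89, SE 0.27, adjusted p = 2.8e-04).

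The 9 genes of the intermediate filament, the dense bodies and the actin cross-linkers were all lower at D80, and they held both the steepest and some of the mildest changes, with a median of -1.66. Smpx, a small cytoskeletal protein best known from striated muscle (chrX:157698910-157752591, plus strand), had the largest change of the 34. It had 9.01, 10.98 and 11.3 CPM in D60 and 11.5, 6.97 and 8.75 CPM in D80 wild-type libraries. In transgenic libraries Smpx had 2.77, 4.75 and 4.38 CPM at D60 and 0.421, 0.332 and 0.155 CPM at D80, the last from 14, 9 and 5 counts. The 4 groups are thus ordered without overlap between genotypes at either age, and the D80 change was -4.88 (SE 0.36, adjusted p = 2.4e-06), or 29.5-fold. Synpo2, an actin-bundling protein of Z-discs and dense bodies (chr3:123076519-123236149, minus strand), had 388, 629.9 and 486 CPM in D60 and 397, 297 and 441 CPM in D80 wild-type libraries. Its transgenic values were 182, 348 and 319 CPM at D60 and 52.5, 51.9 and 40.3 CPM at D80, a change of -2.97 (SE 0.27, adjusted p = 1.1e-05). Des, desmin, the muscle intermediate filament (chr1:75360329-75368579, plus strand), had 2407, 3423 and 3077 CPM in D60 and 3056, 1682 and 2643 CPM in D80 wild-type libraries. In transgenic libraries it had 995, 2103 and 1885 CPM at D60 and 345, 336 and 291 CPM at D80, the D80 change being -2.92 (SE 0.31, adjusted p = 3.6e-05). These 3 genes had the largest D80 changes of all members.

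Desmin fell further than several other members within the same libraries. The log2 ratio of Des to Acta2 was -0.24 to 0.12 in wild-type, -0.42 to -0.28 in D60 transgenic and -1.06 to -0.75 in D80 transgenic libraries. The log2 ratio of Tagln to Des went the other way, from -0.44 to -0.12 in wild-type and -0.16 to -0.08 in D60 transgenic to 0.37 to 0.91 in D80 transgenic libraries. Csrp1, a LIM protein that binds actinin, moved the same way against desmin, from -1.28 to -0.84 in wild-type to 0.10 to 0.68 in D80 transgenic libraries.

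**Figure D3:**
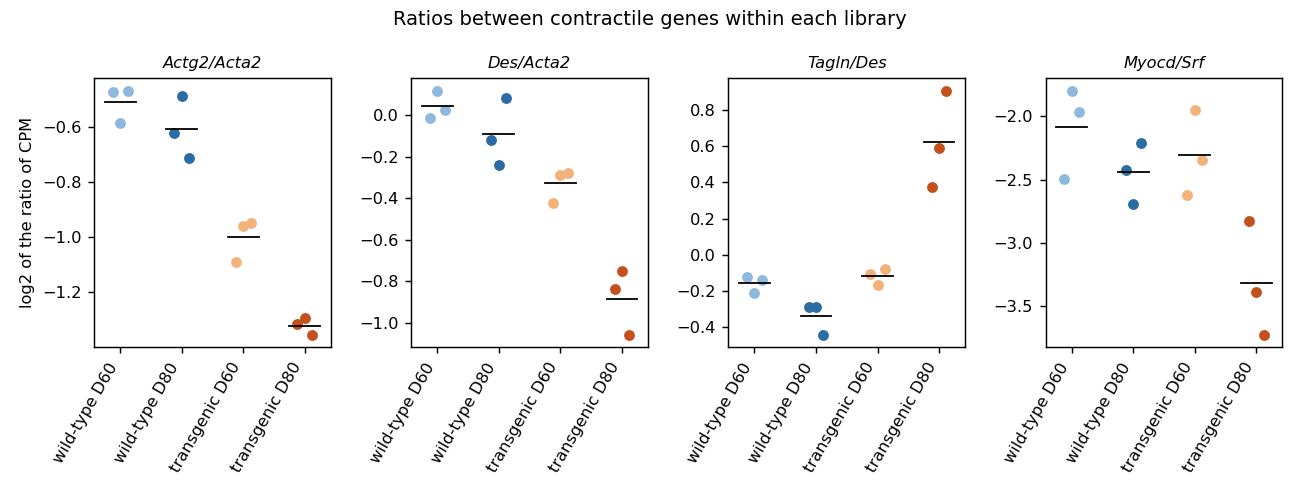
Points give the log2 ratio of 2 members' CPM in each library, with a line at the group mean. Actg2 over Acta2 lies at -0.71 to -0.47 in wild-type and -1.36 to -1.29 in D80 transgenic libraries, Tagln over Des lies at 0.37 to 0.91 in the D80 transgenic libraries, and Myocd over Srf is lowest there.

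Flna, filamin A, which cross-links actin in many cell types, had 1783, 2272 and 1801 CPM in D60 and 1693, 1226 and 1638 CPM in D80 wild-type libraries. It had 871, 1742 and 1474 CPM in D60 and 502, 474 and 469 CPM in D80 transgenic libraries, with a D80 change of -1.66 (SE 0.25, adjusted p = 3.7e-04). Pdlim3, an actinin-binding LIM protein, had 181, 224 and 216 CPM in D60 and 225, 133 and 170.2 CPM in D80 wild-type libraries. Its values were 91.4, 214 and 174 CPM in D60 transgenic libraries, which overlapped the wild-type range, and 45.3, 42.96 and 38.4 CPM in D80 transgenic libraries (-2.06, SE 0.28, adjusted p = 1.9e-04). The milder changes were those of Csrp1, of Nexn, which encodes the actin-binding nexilin, and of Pdlim7 and Ldb3, which encode LIM proteins of actin filaments and Z-discs. Their D80 log2 fold changes were -1.41 for Csrp1, -1.41 for Nexn, -1.10 for Pdlim7 and -1.08 for Ldb3. Ldb3 was the least firm of them, with 11.2 to 22.6 CPM in D80 wild-type against 6.45 to 7.82 CPM in D80 transgenic libraries and an adjusted p of 0.0063. It missed the threshold without a composition factor, with an adjusted p of 0.071, and with a minimum fold change of 1.5, with 0.063.

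Membrane attachment genes changed least as a class, with 3 of 4 lower at D80 and a median of -1.17. Pgm5, a protein of adherens-type junctions that lacks the activity of its enzyme family, had 303, 453 and 368 CPM in D60 and 303, 236 and 346 CPM in D80 wild-type libraries. In transgenic libraries it had 175, 360.5 and 312 CPM at D60 and 81.3, 95.9 and 94.7 CPM at D80, and the D80 change of -1.70 (SE 0.25, adjusted p = 3.9e-04) was the largest of the 4. Dmd, dystrophin, which links actin to the membrane, had 40.8, 46.4 and 34.3 CPM in D60 and 33.4, 34.1 and 35.7 CPM in D80 wild-type libraries. It had 25.2, 35.9 and 29.6 CPM in D60 and 19.1, 14.9 and 15.00 CPM in D80 transgenic libraries, a D80 change of -1.07 (SE 0.16, adjusted p = 3.9e-04) and the smallest among the 32 members called. Sgca, a sarcoglycan mainly of striated muscle, had 2.04, 2.64 and 2.38 CPM in D60 and 1.34, 1.15 and 1.26 CPM in D80 wild-type libraries. Its transgenic values of 0.407, 1.04 and 1.45 CPM at D60 and 0.21, 0.664 and 1.02 CPM at D80 rested on 7 to 34 counts and scattered widely. The D80 difference of Sgca was -0.98 (SE 0.52, adjusted p = 0.15), although the groups did not overlap. Itga8, an integrin chain of smooth muscle and mesenchyme, was lower at D80 by 1.27 on the log2 scale (SE 0.38, adjusted p = 0.02). That call rested on 7.24 to 9.79 CPM in wild-type against 5.98, 2.06 and 2.20 CPM in transgenic libraries, and it was lost in 6 of 29 alternatives, where the adjusted p reached 0.098.

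All 4 genes of the calcium store were lower at D80, with a median of -2.10. Casq2, calsequestrin, which holds calcium inside the sarcoplasmic reticulum (chr3:102086415-102146514, plus strand), had 27.7, 26.00 and 20.6 CPM in D60 and 27.8, 18.7 and 18.5 CPM in D80 wild-type libraries. In transgenic libraries it had 9.27, 10.8 and 11.9 CPM at D60 and 4.15, 2.77 and 2.79 CPM at D80, lower without overlap at both ages and by 6.68-fold at D80 (-2.74, SE 0.23, adjusted p = 5.5e-06). Jph2, junctophilin, which ties the store to the cell membrane, had 193, 272 and 229 CPM in D60 and 200.5, 123 and 198 CPM in D80 wild-type libraries. Its transgenic values were 87.2, 189 and 167 CPM at D60 and 42.5, 36.4 and 31.5 CPM at D80 (-2.24, SE 0.29, adjusted p = 1.3e-04). Mrvi1, a cyclic GMP kinase substrate that restrains calcium release through the inositol trisphosphate receptor, had 103, 177 and 142 CPM in D60 and 119, 77.7 and 144 CPM in D80 wild-type libraries. It had 73.5, 145 and 135 CPM in D60 transgenic libraries, overlapping wild-type, and 33.8, 25.6 and 28.7 CPM in D80 transgenic libraries (-1.95, SE 0.30, adjusted p = 4.4e-04). Ryr2, a calcium release channel of the store, fell from 9.66 to 14.9 CPM in D80 wild-type to 3.63 to 4.28 CPM in D80 transgenic libraries (-1.58, SE 0.31, adjusted p = 0.0023).

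Both small heat shock proteins fell at D80. Hspb6, which is phosphorylated when smooth muscle relaxes, had 71.99, 93.4 and 78.6 CPM in D60 and 66.9, 44.3 and 64.5 CPM in D80 wild-type libraries, and 44.1, 69.1 and 68.1 CPM in D60 and 24.1, 23.01 and 25.3 CPM in D80 transgenic libraries (-1.28, SE 0.20, adjusted p = 4.8e-04). Hspb7, a chaperone of heart and other muscle, had 37.1, 49.6 and 38.6 CPM in D60 and 44.5, 31.7 and 33.7 CPM in D80 wild-type libraries. Its level was 12.3, 27.4 and 26.99 CPM in D60 and 10.6, 13.8 and 10.04 CPM in D80 transgenic libraries. The D80 change was -1.67 (SE 0.28, adjusted p = 7.6e-04). At D60 its transgenic values also lay below the wild-type values, but the difference did not pass the test (-0.91, SE 0.27, adjusted p = 0.11).

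The transcription factors were lower at D80 as well, to unequal degrees. Srf (chr17:46548329-46556175, minus strand), which is expressed in most cell types, had 115, 146 and 127 CPM in D60 and 109, 90.5 and 112 CPM in D80 wild-type libraries. In transgenic libraries it had 75.9, 106 and 111 CPM at D60 and 50.5, 46.3 and 50.1 CPM at D80, a D80 change of -1.08 (SE 0.15, adjusted p = 2.7e-04). Myocd, myocardin, the muscle-restricted cofactor of SRF (chr11:65176561-65269989, minus strand), had 20.3, 42.02 and 32.5 CPM in D60 and 20.3, 14.03 and 24.2 CPM in D80 wild-type libraries. It had 12.4, 27.5 and 21.8 CPM in D60 and 7.12, 4.42 and 3.78 CPM in D80 transgenic libraries, with a D80 change of -1.93 (SE 0.36, adjusted p = 0.0017). The log2 ratio of Myocd to Srf was -2.69 to -1.80 in wild-type and -3.73 to -2.83 in D80 transgenic libraries. Over the 34 members, the size of the D80 change went with the wild-type level, with a Pearson correlation of -0.36 and a Spearman rank correlation of -0.56 between the log2 fold change and log2 mean CPM, so that abundant members tended to fall further. The members share their libraries, and this is a description only.

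At D60, 2 of the 34 members were lower in transgenic pylorus and none was higher, where 0.241% of all genes tested were lower and 3.66% higher. The members called were Casq2, with a change of -1.22 (SE 0.22, adjusted p = 0.0061), and Smpx, with -1.39 (SE 0.29, adjusted p = 0.019). Of the 34 members 33 had a negative difference, with a median of -0.63 against 0.00 over all genes, and 20 did not overlap between the groups, as 7.84% of all genes. Actg2 was next, with -0.95 (SE 0.26, adjusted p = 0.075), and Acta2 had -0.48 (SE 0.26, adjusted p = 0.45). The count depended on the settings, as did the calls over all genes. DESeq2 called 10 members and 159 genes lower, against 37 genes with edgeR. A minimum fold change of 1.5 called 0 members and 4 genes lower, and a fit with sex type as a factor called 0 members and 0 genes lower. Sex type varied within the D80 transgenic group alone, so that fit took its sex difference from replicate 1 of that group. It cannot separate sex type from genotype at D60. Without D60 transgenic replicate 1 the median was -0.37 and Casq2 was the member called. Leaving out D60 wild-type replicate 2, D60 wild-type replicate 3, D60 transgenic replicate 1 or D60 transgenic replicate 3 left 1 member called. Over all genes 60, 14, 25 and 9 were then lower, in that order.

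Between D60 and D80 in transgenic mice, 30 of the 34 members fell and none rose, where 18.0% of all genes tested fell and 17.7% rose. The median was -1.71 against 0.02 over all genes, and 29 members did not overlap between ages, as 28.0% of all genes. The steepest falls were those of Smpx, -3.69 (SE 0.36, adjusted p = 1.3e-04), Synpo2, -2.55 (SE 0.27, adjusted p = 1.5e-04), and Des, -2.36 (SE 0.31, adjusted p = 3.7e-04). Myh11 followed with -2.27 (SE 0.29, adjusted p = 3.5e-04) and Mylk with -2.21 (SE 0.24, adjusted p = 1.7e-04). The members that did not pass were Itga8 at -0.43, Ldb3 at 0.04, Sgca at -0.61 and Actc1 at -0.46, and Ldb3 had 6.10 to 7.63 CPM at D60 and 6.45 to 7.82 CPM at D80. Hspb7 passed at -0.95 (adjusted p = 0.019), and that call was lost in 8 of 29 alternatives. Without D80 transgenic replicate 1, which leaves female-type libraries at both ages, 30 members fell with a median of -1.75. Over all genes 2309 then fell and 2456 rose, with a median of 0.02. Without a composition factor 29 members fell, and all genes split into 1098 that fell and 5154 that rose, against 2765 and 2725 with TMM. This comparison shares the D80 transgenic libraries with the one between genotypes at D80.

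In wild-type mice, 0 of the 34 members passed the test between the ages, where 0% of all genes tested did in either direction. At an unadjusted p under 0.05 there was 1 member, Hspb6, which was lower at D80 by 0.47 on the log2 scale (SE 0.19, adjusted p = 0.35), and DESeq2 called 0 members while calling 90 genes lower and 164 higher. Without D80 wild-type replicate 1 edgeR called 20 genes lower and 376 higher, and 0 members. The members' median was -0.30, against 0.04 over all genes, 31 of the 34 differences were negative and 8 members did not overlap, as 4.55% of all genes. For Myh11 the difference was -0.41 with a 95% interval of -1.02 to 0.20, and for Acta2 -0.14 with an interval of -0.71 to 0.42. These intervals include no change and, for Myh11, a fall as large as some that were called between the ages in transgenic mice.

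**Figure D4:**
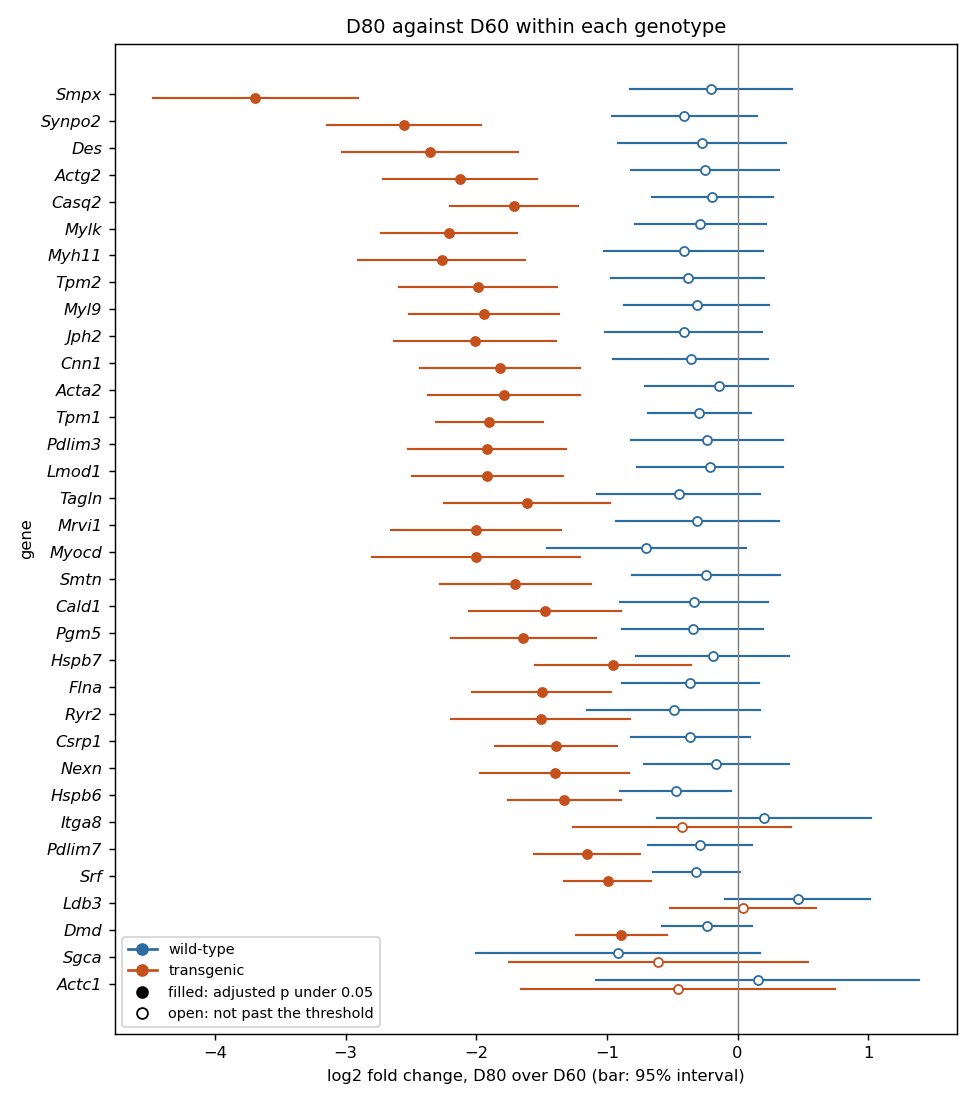
Points give the log2 fold change of D80 over D60 for each member in wild-type and in transgenic mice, with its 95% interval as a bar; filled points passed an adjusted p of 0.05. The transgenic points run from -3.69 for Smpx to 0.04 for Ldb3 with 30 filled, and none of the wild-type points is filled.

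The difference between genotypes was larger at D80 than at D60 for 16 of the 34 members, by a negative interaction of genotype and age, where 2.23% of all genes tested had a negative and 2.77% a positive interaction. All 3 thick filament genes were among them, as were 4 of 5 thin filament genes, 2 of 5 actin-binding regulators, 4 of 9 genes of the dense body class and 3 of 4 of the calcium store. None of the membrane attachment, heat shock or transcription factor genes was. The strongest interactions were those of Smpx, -3.49 (SE 0.46, adjusted p = 0.0049), Synpo2, -2.15 (SE 0.36, adjusted p = 0.012), Des, -2.09 (SE 0.42, adjusted p = 0.019), and Mylk, -1.92 (SE 0.33, adjusted p = 0.012). The median over all 34 members was -1.38 against -0.06 over all genes. The number called is not firm. It was 27 without D60 transgenic replicate 1, beside 277 negative interactions over all genes, against 343 in the main fit. It was 4 without D60 transgenic replicate 3, D80 transgenic replicate 2 or D80 transgenic replicate 3, 5 without D60 wild-type replicate 3, 8 without D80 wild-type replicate 3, 9 without either replicate 2 at D60, and 10 when replicate 1 of the D60 wild-type group was left out. With sex type as a factor it was 0 (22), with a median of -1.70 over the members. That fit took its sex difference from D80 transgenic replicate 1 alone. The interaction includes the D60 wild-type libraries, which are all male-type, so sex type was not separated from it. Without a composition factor it was 5, and all genes tested then split into 136 negative and 520 positive interactions, against 343 and 425 with TMM and 252 and 477 with upper-quartile factors.

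Genes that work with the members were examined in further lists, whose counts at D80 are to be read against the 22.0% lower and 19.4% higher of all genes tested. Of 18 genes of the adhesion plaque 15 were lower and 0 higher, including Palld, an actin cross-linker of dense bodies (-1.97, SE 0.22, adjusted p = 4.7e-05), Itga7, a laminin receptor chain of muscle (-1.94, SE 0.21, adjusted p = 3.9e-05), and Itga1, a collagen receptor chain (-1.02, SE 0.14, adjusted p = 2.0e-04). Of 13 genes of the dystrophin complex and caveolae 9 were lower and 0 higher, including Sgcd, a sarcoglycan of smooth muscle (-2.26, SE 0.29, adjusted p = 1.5e-04), and Ptrf and Cav1, coat proteins of caveolae (-1.76, SE 0.20, adjusted p = 4.5e-05 for Ptrf and -1.46 (SE 0.22, adjusted p = 4.9e-04) for Cav1). Of 23 other genes abundant in smooth muscle 19 were lower and 0 higher, with a median of -1.24. Pcp4, a calmodulin-binding peptide, stood at 28.7 to 48.8 CPM in D80 wild-type and 3.53 to 5.62 CPM in D80 transgenic libraries (-3.13, SE 0.27, adjusted p = 7.0e-06). Sh3bgr changed by -2.63 (SE 0.29, adjusted p = 3.9e-05) and Slmap, a sarcolemma-associated protein, by -1.03 (SE 0.10, adjusted p = 2.2e-05).

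Channels, receptors and cyclic GMP genes did not move as one, and the counts of these 3 lists were not far from the shares of all genes. Of 18 genes for channels and calcium handling 6 were lower and 2 higher at D80. Pln, phospholamban, which restrains the calcium pump of the store, had 70.3 to 103 CPM in D80 wild-type and 6.57 to 11.8 CPM in D80 transgenic libraries (-3.18, SE 0.30, adjusted p = 1.3e-05). Atp2b4, a calcium pump of the cell membrane, changed by -1.97 (SE 0.21, adjusted p = 2.9e-05), and Kcnmb1, the smooth muscle subunit of the large-conductance potassium channel, by -1.24 (SE 0.23, adjusted p = 0.0018). In the other direction Trpc4, a cation channel that muscarinic receptors open in gut muscle, rose from 1.79 to 2.03 CPM to 20.6 to 36.3 CPM (3.84, SE 0.25, adjusted p = 8.6e-07), and it was already higher at D60, by 1.63 (SE 0.24, adjusted p = 0.0020). Cacna2d1, a calcium channel subunit, was higher by 1.31 (SE 0.23, adjusted p = 0.0011). Of 13 tested receptors for contractile agonists 2 were lower and 2 higher. Chrm2, the more abundant muscarinic receptor of gut muscle, went from 15.9 to 23.5 CPM in D80 wild-type to 2.01 to 3.83 CPM in D80 transgenic libraries (-2.65, SE 0.27, adjusted p = 2.5e-05), and Tacr2, the neurokinin A receptor, changed by -2.12 (SE 0.29, adjusted p = 2.2e-04). Adra1a, an adrenergic receptor (2.72, SE 0.44, adjusted p = 7.0e-04), and Ednra, an endothelin receptor (1.45, SE 0.27, adjusted p = 0.0015), were higher. Which cells of the bulk tissue carry the higher Trpc4, Cacna2d1, Adra1a and Ednra transcripts was not tested. Of these genes Trpc4 alone passed the test at D60. Of 7 cyclic GMP genes 2 were lower, Pde5a, the phosphodiesterase that ends the relaxing signal (-1.81, SE 0.14, adjusted p = 4.0e-06), and Prkg1, the kinase that carries it (-1.76, SE 0.16, adjusted p = 8.0e-06), and 1 was higher, Pde1a (0.86, SE 0.29, adjusted p = 0.034). Pde5a was lower at D60 too, by 0.73 on the log2 scale (SE 0.14, adjusted p = 0.011).

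Of 16 non-muscle counterparts of the members 11 were lower and 1 higher at D80, with a median of -0.65. Myl6, an essential myosin light chain found in muscle and non-muscle cells, changed by -1.35 (SE 0.17, adjusted p = 1.2e-04), Tagln2, a relative of Tagln, by -1.39 (SE 0.23, adjusted p = 7.3e-04), and Myl12b, a non-muscle regulatory light chain, by -0.63 (SE 0.18, adjusted p = 0.015). Myh10, a non-muscle myosin heavy chain, was higher, at 42.3 to 56.4 CPM against 16.4 to 22.9 CPM (1.37, SE 0.24, adjusted p = 0.0011). Among 18 SRF cofactors and other transcription factors of smooth muscle 8 were lower and 0 higher, with Klf4 at -1.70 (SE 0.29, adjusted p = 8.9e-04), Tead3 at -1.03 (SE 0.21, adjusted p = 0.0028) and Gata6 at -0.95 (SE 0.18, adjusted p = 0.0017). Klf4 is known to oppose myocardin in cultured smooth muscle. The cells in which Klf4 fell were not identified, and 5 of 6 epithelial markers were lower at D80 as well.

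Marker lists of other cells moved in the same libraries. Transcripts of neighbouring organs varied too. The sum of 7 duodenal enterocyte markers was 541, 2424 and 10403 CPM in the D80 wild-type libraries and 1409 to 3167 CPM in the D80 transgenic libraries. The sum of 7 pancreatic acinar markers was 282 to 612 CPM in the D80 wild-type libraries and 3235, 808 and 687 CPM in the D80 transgenic libraries. Without the highest library of each kind, D80 wild-type replicate 3 and D80 transgenic replicate 1, 32 members were lower at D80. Over all genes 2446 were lower and 2660 higher in that fit. Of 6 neuroendocrine markers 6 were higher at D80, with a summed level of 487 ± 16.0 CPM (SD, n = 3) in wild-type and 27617 ± 6349 CPM in transgenic pylorus. All 6 were higher at D60 as well. Of 8 leukocyte markers 7 were higher, and of 5 proliferation markers 4. Of 8 fibroblast markers 3 collagens were higher and 0 lower, with sums of 1685 to 2082 CPM in wild-type and 3958 to 4765 CPM in transgenic libraries. Of 7 endothelial markers 4 were higher and 0 lower, with sums of 123 to 189 CPM in wild-type and 215 to 249 CPM in transgenic libraries. Of 6 epithelial markers 5 were lower, with sums of 10760.5 to 16111 CPM in wild-type and 4676 to 7192 CPM in transgenic libraries. The epithelial sum was thus also lower in the D80 transgenic libraries, while the fibroblast and endothelial sums were higher. Their part in the members' fall was not tested.

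**Figure D5:**
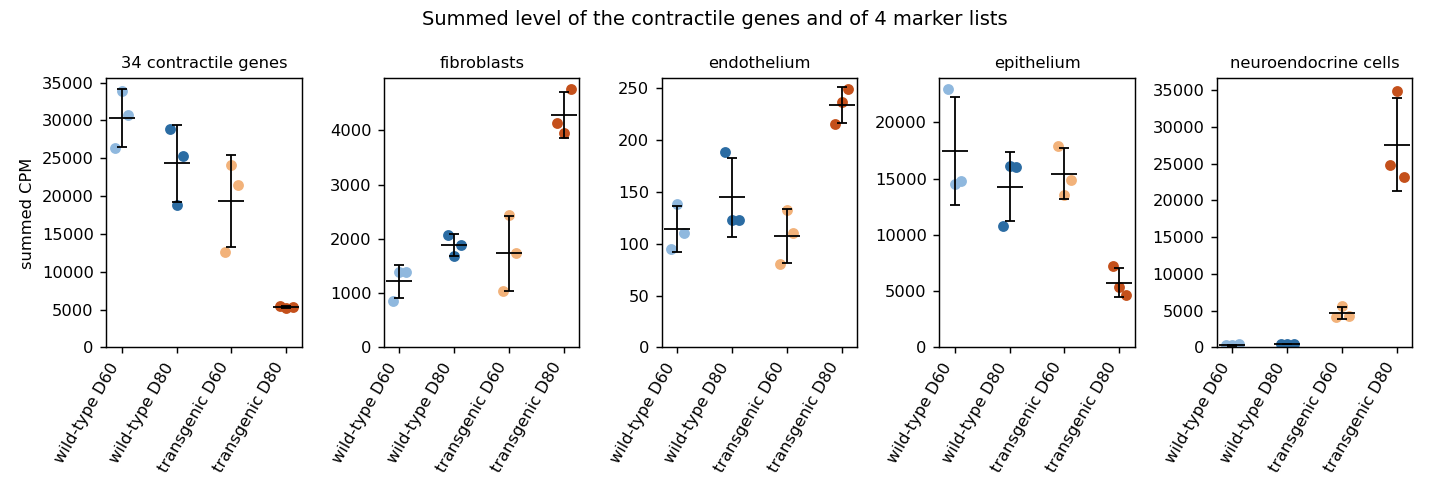
Points give the summed CPM of the 34 contractile genes and of 4 marker lists in each library, with the group mean and SD; every axis starts at 0. The contractile genes and the epithelial markers are lowest in the D80 transgenic libraries, and the fibroblast, endothelial and neuroendocrine markers are highest there.

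Vascular mural cells carry several members, Acta2 and Tagln among them, and their 8 markers were split, with 2 lower and 2 higher at D80 and sums of 401 to 556 CPM in wild-type and 305 to 379 CPM in transgenic libraries. Rgs5, a pericyte and arterial marker, was lower (-1.64, SE 0.22, adjusted p = 1.5e-04), as was Cspg4 (-0.90, SE 0.29, adjusted p = 0.026), while Notch3 (1.94, SE 0.28, adjusted p = 3.1e-04) and Pdgfrb (1.76, SE 0.34, adjusted p = 0.0021) were higher. The 8 markers of interstitial cells of Cajal, the pacemakers that sit between muscle and nerve, had 3 lower and 3 higher and sums of 304 to 347 CPM in wild-type and 284 to 318 CPM in transgenic libraries. Adcy5 (-1.81), Edn3 (-2.02) and Ano1 (-0.77) were lower, and Etv1 (2.90), Kit (1.68) and Hcn4 (1.41) were higher, on the log2 scale. Glial markers were lower for 2 of 6, a count near the share of all genes, and neuronal markers lower for 3 and higher for 4 of 8. Some transcripts known from striated muscle were detected, while defining ones were not or were too low to test. Of 10 skeletal muscle markers 6 could be tested and 4 of them, Ckm, Tnnt3, Acta1 and Tnni2, were lower at D80, with sums of 48.2 to 94.1 CPM in wild-type and 12.9 to 16.1 CPM in transgenic libraries. The skeletal myosins Myh1, Myh2 and Myh4 were too low to test, as was Myog, and 1 of the 10 markers had 0 counts in all libraries. Of 7 cardiac markers 3 could be tested, Myh6, Tnni3, Nppa and Mybpc3 being too low, and 2, Tnnt2 and Myh7, were lower, with sums of 8.05 to 12.5 CPM in wild-type and 4.39 to 7.65 CPM in transgenic libraries. The part of striated muscle in Smpx, Ldb3, Sgca, Casq2 and Actc1, which striated muscle also expresses, was not tested.

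Reads of some members may be shared with genes on the opposite strand, since the sources used here do not give the strand setting of the counting. The annotated exons overlap by 548 bases for Mylk, 372 for Itga8, 220 for Des, 108 each for Tagln and Mrvi1 and 3 for Hspb6.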

How the data were processed

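RNA from bulk pylorus was measured in 12 libraries, 3 per group, made per the labels with Qiagen RNA extraction and Illumina's stranded mRNA chemistry. Raw counts of 23420 gene symbols, with no normalization, are as the authors deposited them. Build mm10 and the tools edgeR 3.16.5, HTSeq 0.9.1 and STAR 2.5.3a stand in the submitters' processing notes, without roles. A second table, deposited by the authors, holds a normalized signal for 15465 genes. Multiplied by 1 factor per library, 99.997% of its values came within 0.01 of whole counts, which equalled the raw counts for 100% of values in 15442 genes matched by name. It served only as an alternative.

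The tools were edgeR 4.0.16, DESeq2 1.42.0 and limma 3.58.1 under R 4.3.3. The filterByExpr filter left 15369 genes holding 99.975% of the counts. TMM factors ran from 0.805 to 1.30. edgeR's quasi-likelihood fit took all 12 libraries with a mean for each group, leaving 8 residual degrees of freedom, and the biological coefficient of variation was 24.2%. Adjustment (Benjamini-Hochberg) ran over every gene tested, and an adjusted p under 0.05 was called, whatever the fold. The pipeline was tested on simulated data. Counting error is small beside the spread between libraries, except for members with few counts.

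The members, the role classes and the further gene lists were chosen with earlier results of these data known. Per-library values are given for the 2 members of each role class with the highest wild-type level, the 3 largest and 3 smallest changes at D80, and each member past the threshold at D60, between ages in wild-type mice or in the interaction. Of each further pathway list up to 3 genes with the smallest p in each direction at D80 are named. Marker lists are given as counts and sums, and the marker genes named were chosen after their values were seen. The result of 1 list is not reported here. Lengths and coordinates are from GENCODE M21 on GRCm38, and promoters from RefSeq on GRCm38.p6. The planned comparison of actin proteins was replaced by shared stretches of their transcripts.

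Replicate numbers were not used to pair libraries. Alternatives were DESeq2, limma-voom, other scaling factors, looser and stricter low-count filters, limma on log2 of the normalized signal plus 1, robust dispersion, a minimum fold change of 1.5, only the groups compared, a replicate block, sex type as a factor, and leaving out libraries. Chosen after seeing the data were the counts recovered from the normalized table and leaving out replicate 1 of both transgenic groups together.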

Additional observations from a re-analysis of the deposited data

Results flagged for a closer look

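For 16 members the difference between transgenic and wild-type pylorus was itself different at D80 and D60. The call was by the interaction term of edgeR's quasi-likelihood test at an adjusted p of 0.05. Over all genes tested 2.23% had a negative and 2.77% a positive interaction. With sex type as a factor 0 members were called. The D60 wild-type libraries are all male-type, so sex type was not separated from the interaction. In log2 units the interaction was -3.489 for Smpx, -2.147 for Synpo2, -2.087 for Des, -1.924 for Mylk, -1.882 for Actg2 and -1.853 for Myh11. It was -1.707 for Lmod1, -1.695 for Mrvi1, -1.688 for Pdlim3, -1.645 for Acta2 and -1.628 for Myl9. It was -1.608 for Tpm1, -1.607 for Tpm2, -1.594 for Jph2, -1.521 for Casq2 and -1.462 for Smtn. A negative value means that the transgenic libraries lay further below the wild-type libraries at D80 than at D60. Smpx, Synpo2, Mylk and Tpm1 lost their call in 1 of 28 alternatives each, and Smtn and Tpm2 in 16 of 28 each, the most of the 16. Groups of 3 libraries were not tested for outlying libraries.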

How the results depend on the processing

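The direction of each member called was the same in all alternatives run. At D80 30 to 32 members were lower in each of them, 28 to 31 fell between ages in transgenic mice, and 0 passed between ages in wild-type mice. The 2 members lower at D60, beside 37 of all genes tested, moved with the settings. They became 10 with DESeq2 (159 of all genes), 1 without a composition factor (13) and 0 with a minimum fold change of 1.5 (4). They became 0 with sex type as a factor (0) and 1 without replicate 1 of both transgenic groups (30). Leaving out each library gave 1 to 3 members at D60 and 31 to 32 at D80. It gave 29 to 30 between ages in transgenic mice and 4 to 27 in the interaction. Over all genes the calls in the same direction then ran from 9 to 67, 1888 to 3708, 1639 to 3260 and 60 to 1541, in that order. The 16 interactions, beside 343 negative ones over all genes, became 24 with DESeq2 (785 over all genes), 11 with limma-voom (196) and 5 without a composition factor (136). They became 4 with a minimum fold change of 1.5 (54), 0 with sex type as a factor (22) and 26 without replicate 1 of both transgenic groups (292). Without the D80 wild-type library with most duodenal and the D80 transgenic library with most pancreatic transcripts they became 7 (223). With a replicate block they became 9 (249). The replicate numbers do not pair the libraries by the labels, and residuals correlated at -0.34 to 0.39 over 18 pairs of equal number, with a mean of -0.004, so the block was not used. It changed no other count of members. In those fits the cause was not tested. The consensus CArG box was found in 5 promoters and in 9 with 1 mismatch. Members with few counts, Actc1, Sgca and Smpx, are those that depth limits most.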
